A study of Homo sapiens with 6 samples.

Results

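The class I antigen presentation pathway was examined through 9 genes, chosen by name: *HLA-B*, *HLA-C*, *HLA-E*, *B2M*, *TAP1*, *TAP2*, *TAPBP*, *PSMB8* and *NLRC5*. All 9 were found by symbol among the 60651 genes of each count table. Total RNA was sequenced from 6 cultures of a human neuroblastoma cell line, a model of a childhood tumour of the sympathetic nervous system. By their titles, 3 libraries were EtOH (the vehicle) and 3 were Tet, and the labels give 5 days of tetracycline. The titles name IMR-5/75, a line with *MYCN* amplification, and a tag marks the EtOH libraries as control and the Tet libraries as induction under the heading knockdown. The protocol text instead describes single clones of SK-N-SH with a tetracycline-inducible *MYCN* system, kept in G418 and blasticidin. These descriptions conflict, so libraries are called here by their EtOH or Tet label, and no direction of *MYCN* change is assumed. Nothing in the labels says whether the 3 libraries of a group came from separate experiments, so the p-values measure the spread between these libraries only.

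Class I molecules carry short peptides from the cell's own proteins to its surface, where cytotoxic T cells inspect them. A heavy chain (*HLA-B*, *HLA-C* and the less variable *HLA-E*) pairs with the light chain beta-2 microglobulin (*B2M*). Peptides are cut by the proteasome, whose interferon-inducible form contains *PSMB8*, pumped into the endoplasmic reticulum by the transporter *TAP1*/*TAP2*, and loaded with the help of tapasin (*TAPBP*), while *NLRC5* activates transcription of the class I genes. Low surface class I is a well known feature of neuroblastoma cells.

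Of the 9 genes, 6 had a count of 0 in every library: *HLA-B*, *HLA-C*, *HLA-E*, *TAP1*, *TAP2* and *PSMB8*. Only *B2M*, *TAPBP* and *NLRC5* were counted at all, and only *B2M* exceeded 24 counts in any library. Neither of the 2 members with enough counts for a test, *B2M* and *NLRC5*, passed the threshold between Tet and EtOH. The libraries held 27933378 to 40498065 counts. A count of 0 therefore allows a level of up to 3 counts, which is 0.0755 to 0.108 CPM in a single library. CPM values are counts scaled by TMM to a common library total, and this limit covers counting error only.

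To show what the counting had to tell apart, a 30-base stretch of coding sequence from the middle of the longest coding exon is given for each member, read from GRCh38 on the gene's strand. *HLA-B*, *HLA-C* and *HLA-E* are shown because they are close relatives with stretches of near-identical sequence, and the rest because they are members counted (*B2M*, *TAPBP*, *NLRC5*) or at 0 (*TAP1*, *TAP2*, *PSMB8*). No letters are capitalised in these lines.
*HLA-B* (chr6:31356289-31356318, minus strand, exon 3): ctggaccgccgcggacacggcggctcagat
*HLA-C* (chr6:31271195-31271224, minus strand, exon 3): ctggaccgccgcggacaccgcggctcagat
*HLA-E* (chr6:30490362-30490391, plus strand, exon 3): tcctggaccgcggtggacacggcggctcag
*B2M* (chr15:44715547-44715576, plus strand, exon 2): gagaattgaaaaagtggagcattcagactt
*TAP1* (chr6:32853322-32853351, minus strand, exon 1): ttgaagccattagctgcggcactgggcttg
*TAP2* (chr6:32837972-32838001, minus strand, exon 2): ccctgagagccctggtcgcgggggcctcac
*TAPBP* (chr6:33305173-33305202, minus strand, exon 4): gctgcaactcctgggctgaatggccagatg
*PSMB8* (chr6:32841618-32841647, minus strand, exon 5): gggtcatggacagtggctatcggcctaatc
*NLRC5* (chr16:57026178-57026207, plus strand, exon 6): cctgtctctgcctccaccatctgcttcctg
Each stretch occurred at 1 place on the primary chromosomes. On the alternate contigs of the reference, which hold other haplotypes, the *TAP1*, *TAP2* and *PSMB8* stretches each occurred 7 times, those of *HLA-E* 6 times, *TAPBP* 4 times, *HLA-B* 3 times, and *HLA-C* and *B2M* 1 time. The *NLRC5* stretch occurred on none of them.

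The light chain was the only member with an ample count. *B2M* (chromosome 15, 44711487 to 44718851) had 1445, 1250 and 1443 counts in the EtOH libraries and 1114, 946 and 1592 in the Tet libraries. Scaled, these were 40.3, 45.1 and 47.7 CPM in EtOH and 39.5, 26.7 and 40.1 CPM in Tet. Every Tet library lay below every EtOH library, by a narrow margin for the highest Tet library, and the lowest value by far was Tet replicate 2. Of all 22443 genes tested, 8.29% had every Tet library below every EtOH library. The mean of the 3 libraries was 44.4 CPM (SD 3.75) in EtOH and 35.4 CPM (SD 7.57) in Tet. On the log2 scale *B2M* differed by -0.33 (SE 0.19), and the edgeR quasi-likelihood test gave an adjusted p of 0.616 over all genes tested. The interval of 2 SE on each side ran from -0.71 to 0.06 and included no change. Without Tet replicate 2 the log2 fold change was -0.16.

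Lengths here are those of all annotated exons of a gene together, not of a single transcript, and 5455 bases for *B2M*. By this length, *B2M* had a mean level of 19.96 TPM (SD 4.08 over the 6 libraries), above 79.7% of the protein-coding genes. Its uniquely aligned counts per length over the pooled libraries were at least 1434 times those of *HLA-B*, at least 1193 times those of *HLA-C* and at least 1391 times those of *HLA-E*, each set at 3 counts over all libraries. These bounds hold for the counted reads and are no bound on the transcripts, since reads with several alignments were not counted.

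*NLRC5* (chromosome 16, 56989485 to 57083531), the class I transactivator, had 24, 10 and 11 counts in the EtOH libraries and 16, 8 and 13 in the Tet libraries. These were 0.670, 0.361 and 0.364 CPM in EtOH and 0.567, 0.226 and 0.327 CPM in Tet, so the groups overlapped, and replicate 1 was the highest library of both groups. *NLRC5* differed by -0.34 on the log2 scale (SE 0.54), with an interval from -1.41 to 0.73 and an adjusted p of 0.890 in edgeR. Without EtOH replicate 1 it was 0.0023, which turned the direction.

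Tapasin was near the floor. *TAPBP* (chromosome 6, 33299694 to 33314387) had 2, 1 and 9 counts in EtOH and 2, 0 and 15 in Tet. Replicate 3 held the highest count in both groups, and the groups overlapped. The gene did not pass the filter on low counts and was not tested. Between libraries, genes rich in GC also varied: the median tested gene of at least 55% GC was at 0.866 CPM in EtOH replicate 2 and 2.05 CPM in Tet replicate 3, the lowest and highest of the 6. *TAPBP* has 55.4% GC in its exons and *NLRC5* 56.0%. The part of GC in their values was not tested.

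**Figure D1:**
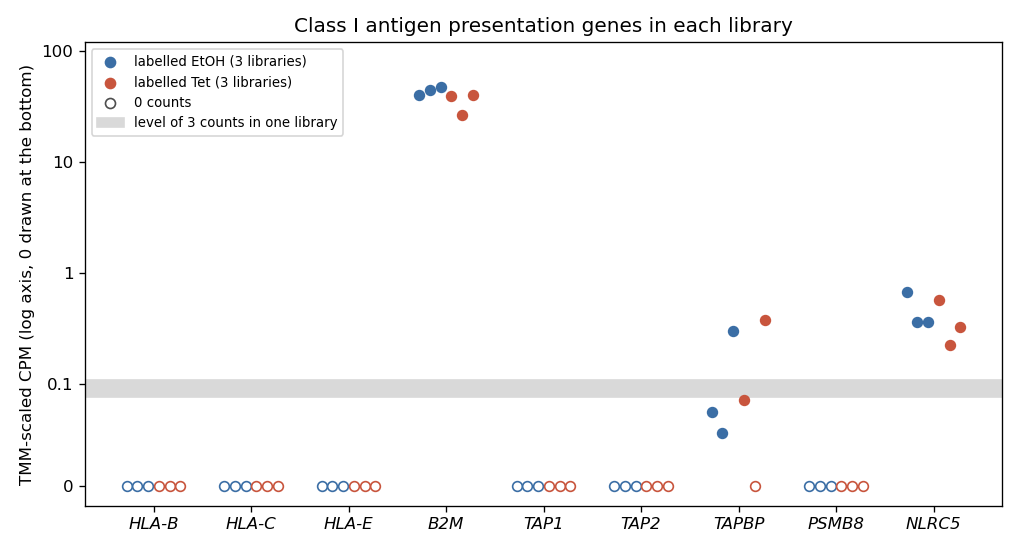
TMM-scaled CPM of the 9 class I genes on a log axis, 1 point per library (blue EtOH, red Tet, 3 each), with open points at the bottom for a count of 0 and a grey band at the level of 3 counts in a library. *B2M* sits between 26.7 and 47.7 CPM, *NLRC5* and *TAPBP* are under 1 CPM, and the other 6 genes are at 0 in all libraries.

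Among all genes, 53 of 22443 passed an adjusted p of 0.05 between Tet and EtOH, which is 0.236%. Of the 9 members, 0 passed, and 0 of the 2 tested had an unadjusted p under 0.05 in edgeR, against 10.8% of all genes tested. The same 0 was found by DESeq2 and by limma-voom. *MYCN*, the gene the model is meant to change, had 158, 256.3 and 156 CPM in EtOH and 197, 200 and 145 CPM in Tet, with overlapping groups (log2 difference of -0.07 with SE 0.23, adjusted p = 0.956 in edgeR). A change of *MYCN* was thus not detected in these libraries, and the values of the class I genes cannot be read against one.

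A further list of 13 pathway genes was examined. Of these, 4 were at 0 in every library, among them *PSMB9*, another interferon-inducible proteasome subunit, encoded next to *PSMB8*. *PSMB10*, the third such subunit, had 16 counts over all libraries. The other 8 were tested, and 0 passed the threshold (0 at an unadjusted p under 0.05 in edgeR). Their log2 fold changes were positive in 5 and negative in 3, with a median of 0.08, against -0.0061 over all genes tested. The general chaperones of the endoplasmic reticulum were well counted. *PDIA3*, which helps class I heavy chains fold, had 272 ± 14.4 CPM in EtOH and 269 ± 26.8 CPM in Tet, and the chaperone *CANX* had 237 ± 71.5 and 258 ± 44 CPM (each ± is the SD of 3 libraries). *ERAP1*, which trims peptides in the endoplasmic reticulum, had 29.3 ± 2.22 CPM in EtOH and 33.3 ± 2.54 CPM in Tet. The extremes among the 8 were *TAPBPL*, a tapasin relative, at 0.56 (SE 0.47, edgeR adjusted p = 0.751) and *PSME1*, a subunit of the proteasome activator, at -0.62 (SE 0.60, edgeR adjusted p = 0.794). Without Tet replicate 3 *TAPBPL* was at 0.17. *PSME1* was at -0.18 without EtOH replicate 1 and at -1.07 without EtOH replicate 2 (unadjusted p = 0.0181, edgeR adjusted p = 0.151). All 14 subunits of the standard proteasome core were counted and tested, including *PSMB5*, the constitutive counterpart of *PSMB8*, at 14.8 ± 2.65 CPM in EtOH and 13.998 ± 3.86 CPM in Tet. The extremes were *PSMA3* at 0.33 and *PSMB7* at -0.33 (edgeR adjusted p of 0.810 and 0.620), and *PSMA4* had the highest level, at 212 ± 51.2 CPM in EtOH and 229 ± 16.7 CPM in Tet. None of the 14 passed the threshold (0 at an unadjusted p under 0.05 in edgeR).

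**Figure D2:**
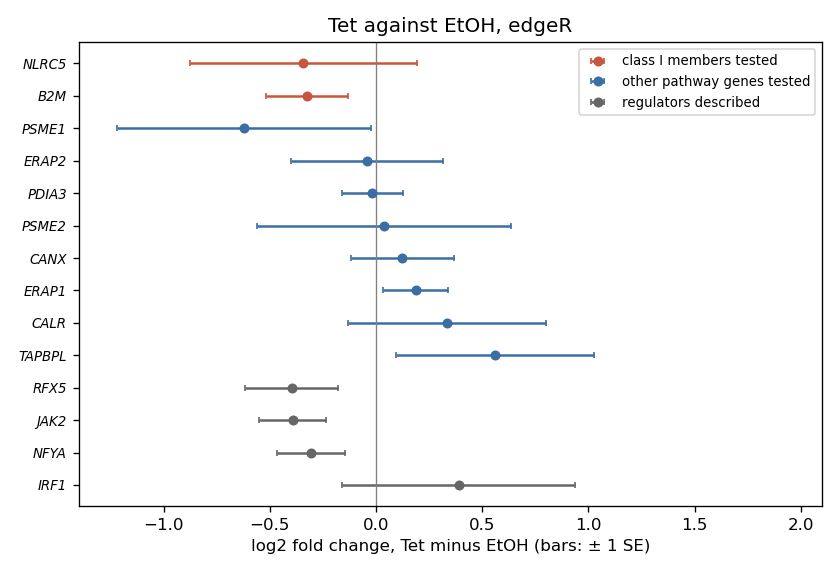
Log2 fold change (Tet minus EtOH) with bars of ± 1 SE for the tested class I members (red), other pathway genes (blue) and the regulators *JAK2*, *RFX5*, *NFYA* and *IRF1* (grey). *B2M* is at -0.33 and *NLRC5* at -0.34, and none of the genes drawn passed the threshold.

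Most regulators of class I transcription were counted. Of 21 regulators, 20 were tested and 0 passed the threshold, with 13 higher and 7 lower in Tet by their fitted values. At an unadjusted p under 0.05 in edgeR there was 1, a share below the 10.8% of all genes tested. That gene was *JAK2*, a kinase of the interferon gamma receptor, at 38.2 ± 3.20 CPM in EtOH and 29.1 ± 2.89 CPM in Tet, a log2 difference of -0.39 with SE 0.16 (adjusted p = 0.426, edgeR). *RFX5* and *NFYA*, subunits of the complexes that bind class I promoters together with *NLRC5*, had 81.7 ± 22.3 and 151 ± 20.4 CPM in EtOH and 62.1 ± 6.75 and 122 ± 11.9 CPM in Tet. Their log2 differences were -0.40 and -0.31, while those of the partner subunits were -0.06 for *RFXAP*, 0.23 for *RFXANK*, 0.09 for *NFYB* and 0.07 for *NFYC*. The extremes of the list were *IFNGR2*, a chain of the interferon gamma receptor, at -0.73 (SE 0.52, edgeR adjusted p = 0.692) and the kinase *TYK2* at 0.56 (SE 0.44, edgeR adjusted p = 0.724). *CREB1* had the highest level, at 220 ± 43.4 CPM in EtOH and 244 ± 27.3 CPM in Tet. *IRF1*, a transcription factor that interferon gamma induces, was at 0.823 ± 0.510 and 1.06 ± 0.442 CPM.

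Genes that interferons induce were mostly low. Of 14, 7 were tested and 0 passed the threshold, with 1 (*IFI44L*) at an unadjusted p under 0.05 in edgeR, against the 10.8% of all genes tested. *IFI44L* was the highest of the list at 49.6 ± 17.9 CPM in EtOH and 74.4 ± 12.1 CPM in Tet, a log2 difference of 0.59 with SE 0.25 (adjusted p = 0.459, edgeR). With the replicate block its adjusted p was 0.0425, and without EtOH replicate 2 it was 0.0229. The extremes were *GBP2* at 0.76 and *IFI6* at -0.83, with edgeR adjusted p of 0.579 and 0.753. *ISG15* and *MX1*, classical interferon targets, had 1 count each over all libraries. *CXCL10* was at 0. Of 8 genes of the class II pathway, 5 were at 0 in every library, while *CIITA*, the class II relative of *NLRC5*, had 1.85 ± 0.272 CPM in EtOH and 1.75 ± 0.307 CPM in Tet. *CD74*, the invariant chain, differed by -0.53 (SE 0.63, edgeR adjusted p = 0.842). Of 8 ligands of immune receptors, 2 (*MICA* and *MICB*, which lie in the same stretch of chromosome 6) were at 0. *ULBP1* and *ULBP3*, ligands of the same receptor encoded outside that stretch, had 31.9 ± 5.17 and 30.6 ± 8.20 CPM in EtOH. *ULBP2*, a further such ligand outside the stretch, had only 0.445 ± 0.354 CPM in EtOH. Of the 5 ligands tested, 0 passed the threshold and 2 had an unadjusted p under 0.05 in edgeR, against 10.8% of all genes tested. Over all genes tested, 8.29% had every Tet library below every EtOH library and 9.21% had every Tet library above. *PVR*, a ligand of natural killer cell receptors, had 0.872 ± 0.232 CPM in EtOH and 0.351 ± 0.0795 CPM in Tet, with every Tet library below (log2 difference -1.28, SE 0.44, adjusted p = 0.321 in edgeR). *CD274*, the checkpoint ligand PD-L1, had 0.706 ± 0.0830 CPM in EtOH and 1.27 ± 0.296 CPM in Tet, with every Tet library above (log2 difference 0.84, SE 0.37, adjusted p = 0.464 in edgeR).

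The cell type label was checked with marker lists. The sympathetic neuroblast factors *GATA3* and *HAND2* were at 247 ± 17.2 and 111 ± 43.9 CPM in EtOH, whereas *TH*, the first enzyme of catecholamine synthesis, had 1 count over all libraries. Of 10 adrenergic markers, 8 were tested and 0 passed the threshold. At an unadjusted p under 0.05 in edgeR there were 5, against 10.8% of all genes tested. All 5 had every Tet library above every EtOH library, a pattern found in 9.21% of all genes tested. *CHGA*, a granule protein of neuroendocrine cells, had the highest log2 difference of the list at 2.18 (SE 0.65, edgeR adjusted p = 0.255), and *HAND2* the lowest at -0.14. In Tet, *CHGA* had 1.63, 2.23 and 7.88 CPM and *PHOX2A* 7.27, 9.14 and 23.4 CPM. Without Tet replicate 3 *CHGA* was at 1.17. *CHGB* was also highest in Tet replicate 3, but *GATA3* and *ISL1* in Tet replicate 2. *CHGA* has 61.1% GC and *PHOX2A* 66.1%, and the part of GC in their values was not tested. Of 10 mesenchymal markers, 9 were tested and 0 passed. At an unadjusted p under 0.05 in edgeR there were 3, against 10.8% of all genes tested. Of the 9, 3 had every Tet library below every EtOH library (8.29% of all genes tested) and 1 had every Tet library above (9.21%). Their extremes were *SNAI2*, a transcription factor of migrating cells, at 1.84 (SE 0.70, edgeR adjusted p = 0.389) and the receptor *NOTCH2* at -1.38 (SE 0.54, edgeR adjusted p = 0.409), and the highest level was that of *VIM* at 201 ± 56.7 CPM in EtOH and 174 ± 32.6 CPM in Tet. The part of these markers in the *B2M* values was not tested. Of 9 immune cell markers, 3 (*CD3E*, *CD79A* and *ITGAM*) were at 0 and the summed level of the list was 0.799 to 1.33 CPM in EtOH and 0.873 to 1.79 CPM in Tet. The marker *LYZ* was higher in every Tet library (0.302 to 1.001 CPM) than in the EtOH libraries (0.0837 to 0.234 CPM), too low to pass the filter, and its part in the *B2M* values was not tested. *CD14* went from a mean of 0.231 CPM in EtOH to 0.133 CPM in Tet with overlapping groups, and *PTPRC*, the only tested gene of the list, differed by -0.52 (SE 0.53, edgeR adjusted p = 0.809). Of 6 fibroblast and endothelial markers, 2 (*COL1A2* and *VWF*) were at 0 and the sum was 6.28 to 7.11 CPM in EtOH and 4.26 to 5.84 CPM in Tet, and the 2 genes tested were *COL1A1* at -0.54 and *LUM* at -0.50 (edgeR adjusted p of 0.640 and 0.627). In bulk libraries, fewer cells of a type and less RNA per cell cannot be told apart.

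Of the 9 members, 7 lie on chromosome 6 between *HLA-F* and *TAPBP*, a stretch of 3.59 megabases that holds the major histocompatibility complex. All 6 members at 0 are among them. Of 147 protein-coding genes in the stretch, 66 (44.9%) were at 0 in every library. Setting aside genes of the lists above, 49 of 128 (38.3%) were at 0, and 26 (20.3%) reached a mean of 1 CPM. The 6 members at 0 have 48.3% to 60.9% GC. Within that GC range, 36.7% of 109 other genes of the stretch were at 0, against 18.5% of 7825 protein-coding genes elsewhere. In the same range 22.9% of the genes of the stretch and 46.9% of those elsewhere reached 1 CPM. Genes outside the lists still include class II genes at 0, such as *HLA-DRB5* and *HLA-DQB2*. The shares are thus not shares of genes outside antigen presentation. Genes outside antigen presentation, such as *TNF* and *MUC21*, were at 0 too. These shares were not tested against each other.

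Directly beside the 6 members at 0 lay 7 protein-coding genes that are no members. Of these, 4 were at 0 in every library, among them *MICA*, *HLA-DMB* and *HLA-DOB*. The other 3 were *POU5F1* beside *HLA-C*, with 64.5 counts over all libraries, and *RPP21* and *GNL1* on either side of *HLA-E*, with 14.5 and 117 counts. To place the members on a map, the nearest genes outside the lists with at least 100 counts over all libraries were also found, a minimum that fixes that they were counted. From *HLA-B* these were *TCF19* at 187 and *DDX39B*, an RNA helicase gene, at 173 kilobases. From *TAP1* they were *PBX2* at 655 and *BRD2*, a chromatin reader, at 115 kilobases. From *HLA-E* they were *TRIM27* at 1566 and *GNL1* at 47.2 kilobases. From *TAPBP* they were *PFDN6* at 1.29 and *DAXX* at 4.17 kilobases. *PFDN6* and *DAXX* had 33.5 to 99.5 and 15 to 70.5 counts in a library, against 0 to 15 for *TAPBP*, a contrast that the minimum favours. The protein-coding genes directly beside *TAPBP* were *RGL2*, with 55 counts over all libraries, and *ZBTB22*, at 0.

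**Figure D3:**
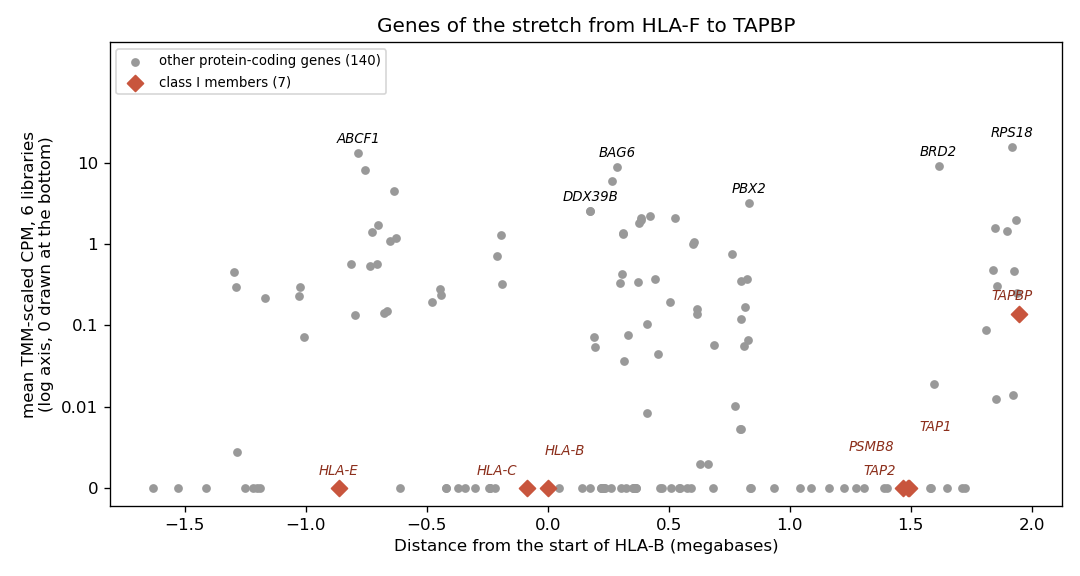
Mean TMM-scaled CPM over 6 libraries (log axis, 0 drawn at the bottom) of the 147 protein-coding genes from *HLA-F* to *TAPBP* against distance from the start of *HLA-B* in megabases, with the 7 class I members as red diamonds. Among the members at 0, *HLA-B*, *TAP1*, *TAP2* and *PSMB8* lie directly between genes at 0. *HLA-E* lies between the counted *RPP21* and *GNL1*, and *HLA-C* beside the counted *POU5F1*. Counted genes such as *DDX39B*, *BAG6* and *BRD2* are labelled.

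The tables hold only reads with a unique alignment, so each member was cut into windows of 100 bases, and each window was looked up in the whole GRCh38 sequence. On the primary chromosomes, 0.0% of *HLA-B*, 0.236% of *HLA-C* and 0.610% of *HLA-E* windows had a further exact copy. On alternate contigs, 45.7% of *HLA-B*, 77.1% of *HLA-C* and 98.1% of *TAP2* windows had an exact copy, as had 100% of those of *HLA-E*, *TAP1*, *PSMB8* and *TAPBP*. The sources used here do not say whether alternate contigs were part of the authors' reference. Of *B2M* windows, 85.8% lay on alternate contigs, with 7790 counts over all libraries. For *TAF15* on chromosome 17 and *YTHDC1* on chromosome 4, both chosen because they were counted, 100% of windows lay there. They had 21133 and 10199 counts. The median window of *B2M*, *TAF15* and *YTHDC1* had 1 copy on alternate contigs, against 7 for *TAP1*, *TAP2* and *PSMB8*. Genes chosen for their counts cannot show whether such copies remove counts. *DDX39B* and *GNL1*, found in the stretch with a minimum of 100 counts, had 100% of their windows on alternate contigs. Their median windows had 6 and 7 copies there, and their mean levels were 2.56 and 0.564 CPM. Of *HLA-B* windows, 54.3% occurred only once in all. Of 446 protein-coding genes off chromosome 6 with at least 90% of windows on alternate contigs, 49.1% were at 0, against 15.2% of all protein-coding genes outside the stretch. Of 117 such genes within the stretch and outside the lists, 35.9% were at 0. A mean of 1 CPM was reached by 19.3% of the 446 genes and 21.4% of the 117. It was reached by 55.8% of all protein-coding genes outside the stretch. Which part copies on alternate contigs, and differences between the line's own *HLA* alleles and the reference, had in the counts of 0 was not tested. A 0 here is thus a count of uniquely aligned reads and does not show that the gene was not transcribed.

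Level also followed GC content across genes. The median protein-coding gene outside the stretch was at 52.1 CPM up to 40% GC and at 0.460 CPM from 55% to 60% GC. *B2M* has 40.9% GC and a mean of 39.9 CPM, and *NLRC5* a mean of 0.419 CPM. Of genes outside the stretch with over 60% GC, 19.8% were at 0.

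**Figure D4:**
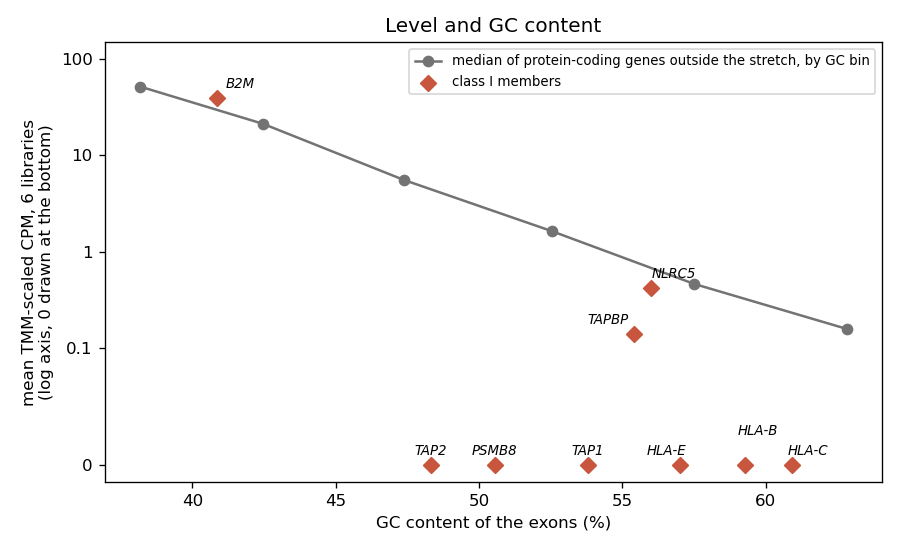
Mean TMM-scaled CPM over 6 libraries (log axis, 0 drawn at the bottom) against the GC content of the exons, with the 9 class I members as red diamonds and the medians of protein-coding genes outside the stretch by GC bin in grey. *B2M* and *NLRC5* lie near the grey line, *TAPBP* below it, and the other 6 at 0.

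Every gene whose exons overlap a member was itself at 0 in all libraries: *PSMB8-AS1* (602 bases of *PSMB8* and 577 of *TAP1*), *PSMB9* (139 bases of *PSMB8*) and unnamed genes over *HLA-B* and *TAP2*. *B2M*, *TAPBP* and *NLRC5* shared 0% of their exon bases with another gene.

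Promoters were compared because *B2M* and *HLA-B*, the light and a heavy chain of one complex, are known to share regulators and differed in their counts. Of the 9 members, 7 had promoters in the RefSeq table (GRCh38.p14), 250 bases before to 50 after the start. The 200 bases before the start that RefSeq gives are shown for both, 5′ to 3′, with capitals for CCAAT (a box bound by the NF-Y complex) and for a form of the interferon-stimulated response element (ISRE: GAAA, any 2 bases, GAAA), on either strand, overlaps included.
*B2M* (chr15:44711317-44711516, plus strand): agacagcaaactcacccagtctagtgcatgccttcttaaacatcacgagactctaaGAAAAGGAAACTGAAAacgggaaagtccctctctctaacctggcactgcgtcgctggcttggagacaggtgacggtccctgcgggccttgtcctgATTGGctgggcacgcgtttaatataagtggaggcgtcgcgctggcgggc
*HLA-B* (chr6:31357180-31357379, minus strand): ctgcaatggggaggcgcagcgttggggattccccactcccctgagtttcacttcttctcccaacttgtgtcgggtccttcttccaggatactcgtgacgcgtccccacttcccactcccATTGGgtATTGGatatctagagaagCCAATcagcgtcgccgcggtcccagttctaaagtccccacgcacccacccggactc
The *B2M* promoter held 2 overlapping ISRE matches and 1 CCAAT, and that of *HLA-B* held 3 CCAAT and no ISRE in these letters. The 7 members had 9 promoters, and 5 of the members had an ISRE match and 4 had CCAAT in at least 1 promoter. A further promoter of *PSMB8* and one of *TAP1* held neither. Counted per promoter rather than per gene, 3.57% of all 35116 promoters held the ISRE and 34.6% held CCAAT. None had CACGTG, the E-box that MYC family proteins bind, which 7.26% of all promoters held. A match is a match of letters only, and says nothing of binding in these cells.

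The genes whose profile over the 6 libraries was most like the mean profile of *B2M* and *NLRC5* were *TEX14* (Pearson r = 0.990), *FICD* (0.985), *TM4SF20* (0.983) and 2 long noncoding RNA genes, out of 16719 genes with a mean of at least 1 CPM. These values are a description over 6 libraries, with no p. *B2M* and *NLRC5* themselves correlated at r = 0.469 over the 6 libraries, which share depth and base composition.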

How the data were processed

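The deposited values are estimated counts per gene, not scaled. Headers of the tables show that the authors used trimmed reads in STAR alignments limited to unique hits, and ran featureCounts 1.6.4 on exons, ignoring strand and splitting reads among overlapping genes. The submitters' processing notes name STAR 2.7.1a, featureCounts 1.5.1 and GRCh38. Estimated counts were rounded, because whole counts had been planned for. Genes were kept by filterByExpr, scaled by TMM and tested (Tet against EtOH, no block) by the quasi-likelihood test of edgeR 4.0.16 in R 4.3.3, with Benjamini-Hochberg adjustment over 22443 genes and a threshold of 0.05. SE is the size of the log2 fold change divided by the square root of F. TPM was computed from counts and the length of all annotated exons of a gene together. The fit was tested on simulated data. Total counts per library were 27933378 to 40498065. Windows of 100 bases, every 5 bases, were searched in GRCh38 with its 261 alternate contigs. Alternatives were DESeq2 1.42.0, limma-voom 3.58.1, RLE factors, no filter, a replicate block, each library left out and, added after seeing the data, a GC correction. The planned *PSMB8* to *PSMB5* ratio was not computed, since *PSMB8* was at 0. Named were all members, the tested extremes and the highest level of each list, genes overlapping members, the 5 most alike genes and *MYCN*, and other genes were chosen after their values were seen. Members and lists were chosen with earlier results of these data known.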

Additional observations from a re-analysis of the deposited data

How the results depend on the processing

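The count of class I members past the threshold was 0 under every alternative run, as was that of the other pathway genes. The count over all genes was 53 and moved with the setting: 302 with no filter on low counts, 499 with DESeq2, 117 with the GC correction and 0 to 692 when 1 library was left out (0 without Tet replicate 1 or Tet replicate 3, 692 without EtOH replicate 2). With the replicate block it was 675. Libraries of a group were also compared in pairs by a chi-square per degree of freedom over their counts. In EtOH it was 128 and 96.1 for replicate 2 against replicates 1 and 3, and 10.2 between those. In Tet it was 27.6 to 68.3. The part of this spread in the number of genes passing was not tested. The deviations of same-numbered libraries correlated at 0.0603, 0.510 and 0.219, all positive. Whether same-numbered libraries share more than a number was not tested. The labels give only the number, so the main fit used no block. With the block in edgeR, *B2M* had an adjusted p of 0.322. Over libraries left out, the log2 fold change ran from -0.42 to -0.16 for *B2M* and from -0.75 to 0.0023 for *NLRC5*, -0.31 to 0.75 for *CALR*, -0.082 to 0.33 for *CANX*, -0.094 to 0.034 for *PDIA3*, -0.30 to 0.15 for *ERAP2* and -0.41 to 0.75 for *PSME2*. *TAPBPL* ran from 0.17 to 0.82 and *PSME1* from -1.07 to -0.18. Directions also turned for the genes below, and each edgeR fit that turned had an adjusted p over 0.5. Their ranges were: *CIITA* -0.20 to 0.058, *CREB1* -2.2e-05 to 0.31, *HAND2* -0.44 to 0.018, *MYCN* -0.22 to 0.21, *NFYB* -0.10 to 0.43, *NFYC* -0.12 to 0.18, *PSMA3* -0.0097 to 0.72, *PSMA4* -0.031 to 0.33, *PSMB5* -0.31 to 0.10, *RFXANK* -0.13 to 0.52, *RFXAP* -0.26 to 0.23, *TYK2* -0.023 to 0.81, *ULBP1* -0.035 to 0.41, *VIM* -0.37 to 0.057. With the GC correction *RFXANK* was at -0.074. Calls were gained for *CHGA* with no filter (adjusted p = 0.0339) and DESeq2 (0.0141), and for *IFI44L* and *SNAI2* with the replicate block (0.0425 and 0.00453) and without EtOH replicate 2 (0.0229 and 0.0451). The cause was not tested. The *PSMB8* to *PSMB5* ratio gave no value. *TAPBP* did not pass the filter on low counts.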
